A study of Homo sapiens with 12 samples.

Results

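The 8 genes described here are the galectins LGALS1, LGALS3 and LGALS8, the galectin ligand LGALS3BP, the epithelial membrane proteins EMP1, EMP2 and EMP3, and their relative PMP22. All probe sets that the platform annotation gives to one of these symbols alone were taken. They made 21 of 54675 probe sets on the array and covered 7 of 19775 named genes, and 15 of the 21 passed the filter on dim signals. LGALS1 and EMP3 were selected on their signals in these same 4 groups, so their levels and changes are given as a description without a test. The other genes were taken as their relatives, and their changes were tested. PMP22 is not analysed here.

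Total RNA was measured on 12 Affymetrix arrays in stable lines made from HEK, a line of human embryonic kidney origin. In one line (here called WT cells) tetracycline switches on wild-type TRPM7, a channel for divalent metal ions fused to a kinase, and in the other (mutant cells) a TRPM7 mutant that lacks the kinase domain and that the series design calls nonfunctional. Both lines were measured without tetracycline and after 72 hours with it, with 3 arrays in each of the 4 groups, and all cells grew with blasticidin at 5 ug/mL. The treated cells received 1 ug of tetracycline, with no volume stated. The labels name no promoter and no number of clones for either line. They leave unsaid if the arrays of 1 group were separate cultures, so p-values here measure the spread between samples that may be technical. In RNA from whole cultures, fewer cells that express a gene and less RNA per cell cannot be told apart.

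Galectins are lectins that bind galactose-containing sugars on glycoproteins. They are made in the cytosol, leave the cell by an unusual route and cross-link glycoproteins at the surface, and inside the cell some of them bind sugars that are exposed when a lysosome or endosome breaks. The EMP proteins and PMP22 are small tetraspan membrane proteins, related to claudins, that act in adhesion, growth and membrane blebbing. PMP22 is best known from the myelin of peripheral nerves.

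The values are MAS5 signals, which summarise the brightness of a probe set, a group of short probes against 1 transcript. The arrays appear to have been scaled to the same trimmed mean. Single arrays are given as signals, and group means and changes on the log2 scale, where 1 is a doubling. Each change has its standard error (SE) from limma, n = 3 against 3 arrays, and a change passed where its p, adjusted by Benjamini-Hochberg over 29553 tested probe sets, was under 0.05. The median SD per probe set was 0.299 and 0.326 in untreated and treated WT cells and 0.174 and 0.19 in mutant cells. Because limma fitted 1 spread per probe set to all groups, errors of WT changes may be understated and those of mutant changes overstated. The actin control, as a log2 ratio of 3′ over 5′ signal, ran from 0.632 to 1.36 in WT cells and from 0.227 to 0.288 in mutant cells. The brightest TRPM7 probe set read 8.47 ± 0.31 (SD, n = 3) and 7.62 ± 0.67 in untreated and treated WT cells, and 8.39 ± 0.12 and 8.19 ± 0.3 in mutant cells, so it gave no check of the treatment labels, and groups are named as labelled. All 9 HEK markers on the array passed the filter, among them LIN28B and NEFL. In WT cells with tetracycline 2 of the 9 passed the test. The insulin receptor substrate IRS4 fell by 1.56 (limma adjusted p = 0.000144) and the intermediate filament VIM rose by 0.651 ± 0.103 (adjusted p = 0.00107). Of other cell types 1 of 5 blood (HBB), 2 of 5 fibroblast (COL1A1, PDGFRA) and 1 of 4 endothelial markers (PECAM1) passed the filter. So did 3 of 5 kidney tubule markers (AQP1, AQP2, LRP2) and 1 of 2 Schwann cell markers (MBP). PTPRC, DCN, CDH5 and SOX10 were among those too dim for the filter. The fibroblast marker COL1A1, a collagen chain, rose in WT cells by 0.884 ± 0.196 (limma adjusted p = 0.00748). It was the 1 marker of another cell type to pass the test there. The part of IRS4, VIM and COL1A1 in the changes of the galectin and EMP genes was not tested.

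LGALS1, the galectin that works as a dimer of single sugar-binding domains, was higher on every WT array with tetracycline than on any other array. Its probe set 201105_at read 620, 549 and 474 on the untreated WT arrays and 1699, 2358 and 3052 on the treated ones. Mutant cells gave 1038, 1011 and 934 untreated and 1238, 1038 and 1123 with tetracycline. The WT groups lay apart, with the lowest treated array far above the highest untreated one, while the mutant groups overlapped. On the log2 scale WT cells went from 9.09 ± 0.19 (SD, n = 3) to 11.17 ± 0.42, a change of 2.08 ± 0.193 (SE) or 4.23-fold. The change in mutant cells was 0.186 ± 0.193, from 9.96 ± 0.08 (SD, n = 3) to 10.14 ± 0.13. This SE was fitted to all groups, and WT arrays spread more than mutant ones. It may therefore be too large for the mutant change. The WT change exceeded the mutant change by 1.89 ± 0.272.

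The order of the 4 groups for LGALS1 was untreated WT, untreated mutant, treated mutant and treated WT. The untreated and treated mutant arrays, neighbours in that order, were not separated, and the other neighbours were. The difference of WT from mutant cells was -0.867 ± 0.193 before treatment and 1.03 ± 0.193 with tetracycline. Leaving out each array in turn gave a WT change between 1.88 and 2.30. Without the replicate 3 arrays of all groups, an alternative added with the data known, the WT change was 1.78. Of all tested probe sets 0.707% had a larger increase in WT cells. The mean actin ratio was 0.987 in untreated and 1.11 in treated WT cells.

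EMP3, a tetraspan protein of the EMP family, was higher with tetracycline in both lines. Probe set 203729_at read 274, 438 and 425 on the untreated WT arrays and 1101, 1428 and 1254 on the treated ones. Mutant cells gave 575, 693 and 654 untreated and 1140, 1326 and 1231 with tetracycline. In each line every treated array was above every untreated array, and the treated groups of both lines covered almost the same range. The change was 1.76 ± 0.192 (SE) or 3.38-fold in WT cells, from 8.53 ± 0.38 (SD, n = 3), and 0.945 ± 0.192 or 1.93-fold in mutant cells, from 9.32 ± 0.14.

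The order of groups for EMP3 was untreated WT, untreated mutant, treated mutant and treated WT, and the last pair overlapped. The difference of WT from mutant cells was -0.785 ± 0.192 untreated and 0.0283 ± 0.192 with tetracycline. The WT change was larger than the mutant change by 0.814 ± 0.271. Leaving out each array in turn gave 1.54 to 1.88 in WT cells and 0.869 to 1.00 in mutant cells. In mutant cells 0.995% of the tested probe sets had a larger increase than EMP3, and 18.9% had one larger than LGALS1.

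**Figure D1:**
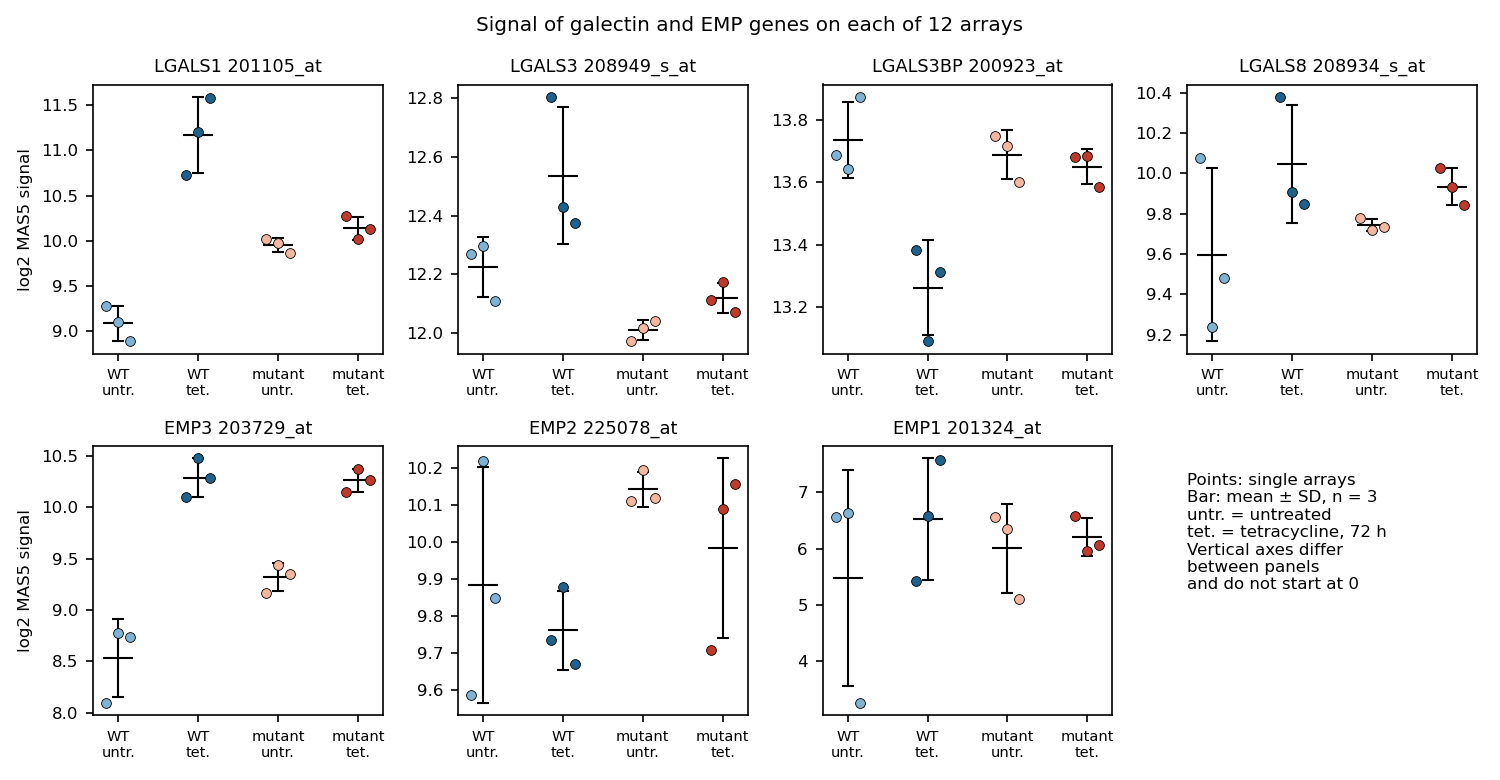
log2 MAS5 signal (vertical axis, not starting at 0 and different in each panel) of the brightest probe set of each of 7 genes in the 4 groups, with single arrays as points and the mean ± SD (n = 3) as bars. LGALS1 is high in treated WT cells alone, at 1699 to 3052 in signal, EMP3 is high in both treated groups, and LGALS3BP is low in treated WT cells.

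LGALS3BP, a secreted glycoprotein rich in sugars that galectins bind, went the other way from LGALS1 in WT cells. Probe set 200923_at read 13208, 12813 and 15039 untreated and 10682, 8714 and 10161 with tetracycline in WT cells. Mutant cells gave 13788, 13477 and 12426 untreated and 13149, 13177 and 12297 with tetracycline. The 3 treated WT arrays were the lowest of the 12, and the other 3 groups overlapped. It fell by 0.476 in WT cells (SE 0.106, 95% interval from -0.701 to -0.251, limma adjusted p = 0.00754). The change in mutant cells was -0.0387 ± 0.106 (adjusted p = 1). With tetracycline the level was lower in WT cells (log2 difference from mutant cells -0.391, adjusted p = 0.0141), and untreated the lines differed by 0.0468 (adjusted p = 0.821). The difference between the inductions was -0.437 ± 0.149 and did not pass (adjusted p = 0.207). It passed without WT tetracycline replicate 1 (-0.498, adjusted p = 0.0492). The difference between the treated lines did not pass without WT tetracycline replicate 2 (adjusted p = 0.0696) or mutant tetracycline replicate 1 (0.0505) or 2 (0.0514), without the variance trend (0.0551) or without the replicate 3 arrays (0.0576). With the 6 WT arrays alone the WT call did not pass (adjusted p = 0.0695).

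LGALS3, the galectin with a collagen-like tail that lets it form larger assemblies, did not pass in either line. Its probe set 208949_s_at read 4933, 5033 and 4411 on untreated and 7163, 5512 and 5313 on treated WT arrays. The WT groups did not overlap, and the change was 0.313 ± 0.124 (limma adjusted p = 0.0984). Mutant cells gave 4014, 4149 and 4207 untreated and 4429, 4617 and 4304 treated, and the change was 0.11 ± 0.124 (adjusted p = 1), with groups that also lay apart. Between the lines with tetracycline LGALS3 was higher in WT cells by 0.418 ± 0.124 (adjusted p = 0.0224), and untreated by 0.215 ± 0.124 (adjusted p = 0.281). The first of these calls was lost without WT tetracycline replicate 1 (0.283, adjusted p = 0.0604) and without any one of the mutant tetracycline arrays (adjusted p from 0.0501 to 0.0702). It was also lost after quantile normalization (0.302, adjusted p = 0.0857), without the variance trend (adjusted p = 0.0562) and with only the groups compared (adjusted p = 0.0621). The other LGALS3 probe set, 1557197_a_at, was too dim to test, with group means from 2.52 to 3.64.

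LGALS8 joins different sugar-binding domains in 1 chain and marks damaged lysosomes and endosomes for autophagy. All 6 of its probe sets were tested, and 1 was called in WT cells. That probe set, 208933_s_at, read 470, 432 and 374 untreated and 751, 687 and 612 with tetracycline in WT cells. Mutant cells gave 571, 443 and 410 untreated and 413, 465 and 526 with tetracycline, with full overlap. It rose in WT cells by 0.687 ± 0.185 (limma adjusted p = 0.0209) and gave -0.0121 ± 0.185 in mutant cells (adjusted p = 1). WT minus mutant change came to 0.699 ± 0.262, which did not pass (adjusted p = 0.24). The WT call did not hold without WT untreated replicate 3 (adjusted p = 0.0754), without WT tetracycline replicate 2 (adjusted p = 0.0617) or with the 6 WT arrays alone (adjusted p = 0.0939).

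The other LGALS8 probe sets did not pass and spread widely. The brightest one, 208934_s_at, read 1078, 604 and 714 untreated and 1332, 962 and 921 treated in WT cells, groups that overlapped, and gave 0.448 ± 0.204 (adjusted p = 0.15). Without WT untreated replicate 1 it gave 0.686 (adjusted p = 0.0266). Over all 6 probe sets the WT change ran from 0.0237 to 0.687 with a median of 0.381, and the mutant change from -0.0121 to 0.46 with a median of 0.132. The probe sets did not follow each other closely over the 12 arrays: Pearson r for the 15 pairs ran from -0.527 to 0.891 with a median of 0.209. All 12 arrays share the same 4 groups, and this range is a description. Between the lines with tetracycline 208933_s_at was higher in WT cells by 0.549 ± 0.185 (adjusted p = 0.0397), a call lost without any filter (adjusted p = 0.0697), with only the groups compared (adjusted p = 0.0573), and without WT tetracycline replicate 1 or 2 or mutant tetracycline replicate 1 or 2 (adjusted p from 0.0797 to 0.141).

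EMP2 is known to act on integrins and caveolae at the cell surface. Before treatment 2 of its 4 probe sets were called lower in WT than in mutant cells. Probe set 204975_at read 748, 737 and 540 on untreated WT arrays and 1240, 1180 and 1016 on untreated mutant arrays, which lay apart. The log2 difference of WT from mutant cells was -0.774 ± 0.17 (limma adjusted p = 0.00968). Probe set 225079_at read 404, 614 and 628 against 1086, 895 and 825, a log2 difference of -0.788 ± 0.201 (adjusted p = 0.02). The other EMP2 probe sets, 225078_at and 238500_at, gave -0.258 (adjusted p = 0.377) and -1.35 (adjusted p = 0.241). The arrays of 225078_at overlapped between the untreated lines. Probe set 238500_at passed the filter of 6.39 through its mutant groups alone, with 5.91 in untreated WT and 7.26 in untreated mutant cells. Nothing is read from its direction. Thus 2 of 4 EMP2 probe sets were called lower, against 8.7% of all tested probe sets called in that direction. These probe sets measure 1 gene on the same arrays, and the 2 called ones had a Pearson r of 0.674 over the 12 arrays. They are not separate members, so the share is not read as an enrichment. The call of 204975_at was lost without mutant untreated replicate 1 (adjusted p = 0.0523). Leaving out WT untreated replicate 1 ended that of 225079_at (adjusted p = 0.0746), as did leaving out mutant untreated replicate 1 (0.0992) or 2 (0.0633). Both were lost without the replicate 3 arrays (adjusted p = 0.0671 and 0.0572). Over all tested probe sets the median difference of WT from mutant cells was -0.0916 untreated and -0.103 with tetracycline. The actin ratio also differed between the lines, and its part in these differences was not tested.

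With tetracycline EMP2 probe sets disagreed in WT cells. Probe set 204975_at read 1090, 841 and 953 on the treated WT arrays, all above the untreated ones, and rose by 0.518 ± 0.17 (limma adjusted p = 0.0496), just inside the threshold. That call was lost without filter (adjusted p = 0.0736), after quantile normalization (adjusted p = 0.051), without the variance trend (adjusted p = 0.0716), with array weights (adjusted p = 0.0709) and with the 6 WT arrays alone (adjusted p = 0.191). It was also lost without WT untreated replicate 3 or any one treated WT array (adjusted p from 0.0574 to 0.182). The brightest EMP2 probe set, 225078_at, read 768, 1193 and 922 untreated and 853, 941 and 815 treated, groups that overlapped, and gave -0.123 ± 0.178. Probe sets 225079_at and 238500_at gave 0.00762 and -0.0125 (adjusted p from 0.677 to 0.993 for these 3). In mutant cells 204975_at read 1231, 1371 and 1159 with tetracycline, a change of 0.132 ± 0.17 (adjusted p = 1), and the 4 probe sets ran from -0.295 to 0.132. With tetracycline WT cells were still lower for 225079_at (-0.631 ± 0.201, adjusted p = 0.0313). That call was lost after quantile normalization (-0.488, adjusted p = 0.0768) and without WT tetracycline replicate 2 or 3 or mutant tetracycline replicate 1 or 2 (adjusted p from 0.0737 to 0.127). Probe set 204975_at gave -0.387 ± 0.17 there (adjusted p = 0.104).

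**Figure D2:**
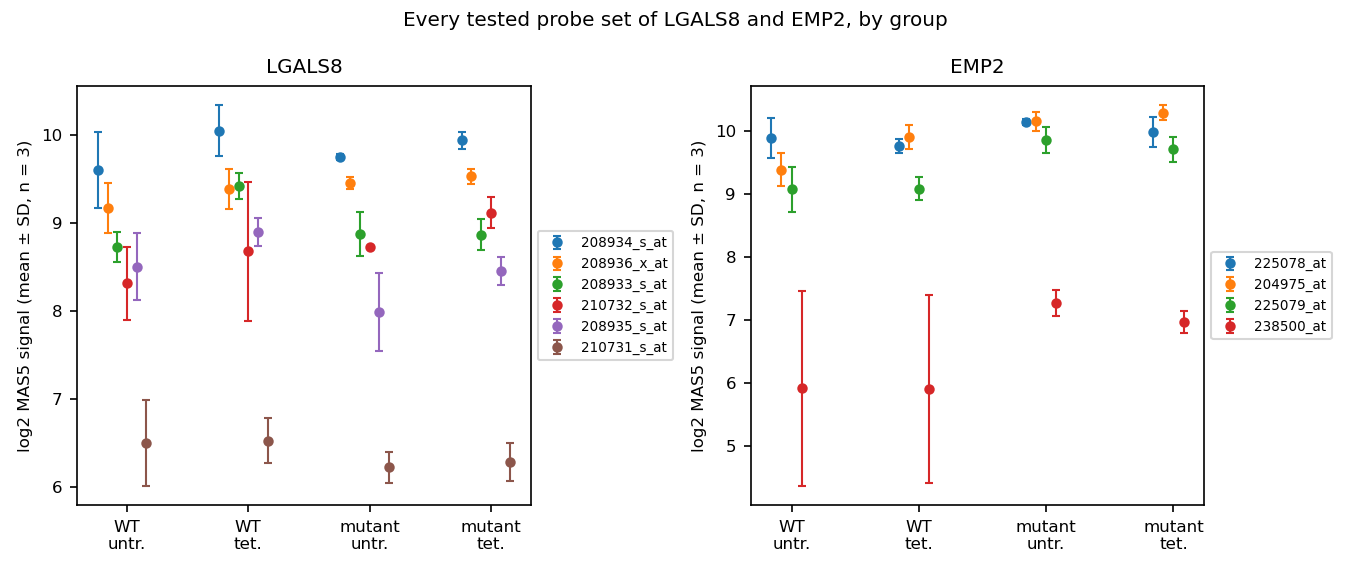
log2 MAS5 signal (mean ± SD, n = 3) of the 6 LGALS8 and the 4 EMP2 probe sets in the 4 groups, 1 colour per probe set. LGALS8 probe sets moved by 0.0237 to 0.687 with tetracycline in WT cells. EMP2 204975_at and 225079_at are lower in untreated WT cells than in untreated mutant cells, while the arrays of 225078_at overlap there. Probe set 238500_at passed the filter through its mutant groups alone, and nothing is read from its direction.

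EMP1, a membrane protein first described in epithelia, was at the edge of detection. Its brightest probe set, 201324_at, read 94.2, 98.8 and 9.63 untreated and 42.8, 95.6 and 191 treated in WT cells, and 94.4, 81.8 and 34.3 untreated and 96, 62.3 and 67.3 treated in mutant cells. All groups overlapped. The WT change was 1.04 ± 0.807 (limma adjusted p = 0.407, interval from -0.683 to 2.76) and the mutant change 0.201 ± 0.807 (adjusted p = 1), and with intervals this wide a change of several fold could have gone undetected. This probe set passed the filter of 6.39 through treated WT cells alone, with a group mean of 6.53. Its means in the other groups ran from 5.48 to 6.21, and nothing is read from the direction of its WT change. LGALS8 210731_s_at was also close to the limit, with a highest group mean of 6.52. The other 5 EMP1 probe sets had group means from 1.44 to 5.83 and fell under the filter. In the alternative without a filter, 1 of them, 201325_s_at, passed in WT cells (2.91 ± 0.84, limma adjusted p = 0.0466). It read 6.9, 10.1 and 6.29 untreated and 26.9, 83.7 and 82.1 treated in WT cells, which lay apart, and 74, 7.51 and 26.1 untreated and 46.7, 33.6 and 29.2 treated in mutant cells, which overlapped. The median signal of an array was between 72.2 and 92.7 and most of these readings were below it. The remaining 4 EMP1 probe sets and the dim LGALS3 one did not pass there (adjusted p from 0.242 to 0.967 in WT cells).

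Across the relatives of LGALS1 and EMP3, 2 of 13 tested probe sets rose and 1 fell in WT cells, against 7.83% and 9.11% of all tested probe sets. These 3 calls are a share not far above the 16.9% called in either direction over the whole array. The median change of the 13 was 0.313, against 0.0234 over all tested probe sets. Of the 13, 6 measure LGALS8 and 4 measure EMP2, so they are not separate members. The counts and medians of the 13 are a description and are not read as a result about the genes. Without a filter on dim signals 3 of 19 passed, of which 2 were among the 3 calls above. EMP1 201325_s_at took the place of EMP2 204975_at. With the 6 WT arrays alone 0 of the 13 passed, and leaving out single arrays gave 1 to 4 calls. The count was 1 without WT untreated replicate 3 or WT tetracycline replicate 2. Without the replicate 3 arrays of all groups it was 0, here and in the other comparisons. In mutant cells 0 of 13 passed by limma, 0 had an unadjusted p under 0.05, 0% of all tested probe sets were called, and the median change was 0.0747. For the difference between the inductions 0 of 13 passed and 2 had an unadjusted p under 0.05, and 0.139% of all tested probe sets were called. Between the untreated lines 0 were higher and 2 lower in WT cells, where 12.9% of all tested probe sets were called, 4.19% higher and 8.7% lower. With tetracycline 2 were higher and 2 lower, where 27.6% were called, 10.2% higher and 17.3% lower. The count for treated lines was 0 without mutant tetracycline replicate 1 or 2 and 1 without WT tetracycline replicate 2. The count for untreated lines was 0 without mutant untreated replicate 1 and 1 without WT untreated replicate 1 or mutant untreated replicate 2. For the difference between the inductions it was 1 without WT tetracycline replicate 1.

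Groups without overlap were counted over all 15 probe sets, LGALS1 and EMP3 included. With tetracycline 5 were higher and 1 lower in WT cells, against 13.7% and 13% of all tested probe sets, and 4 were higher and 1 lower in mutant cells, against 6.86% and 6.39%. In the comparison of untreated lines 1 was higher and 6 lower in WT cells, against 13.4% and 22.1%. With tetracycline 4 were higher and 3 lower, against 16.7% and 24.7%. LGALS1 and EMP3 were selected for such values, so nothing is read from these counts.

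**Figure D3:**
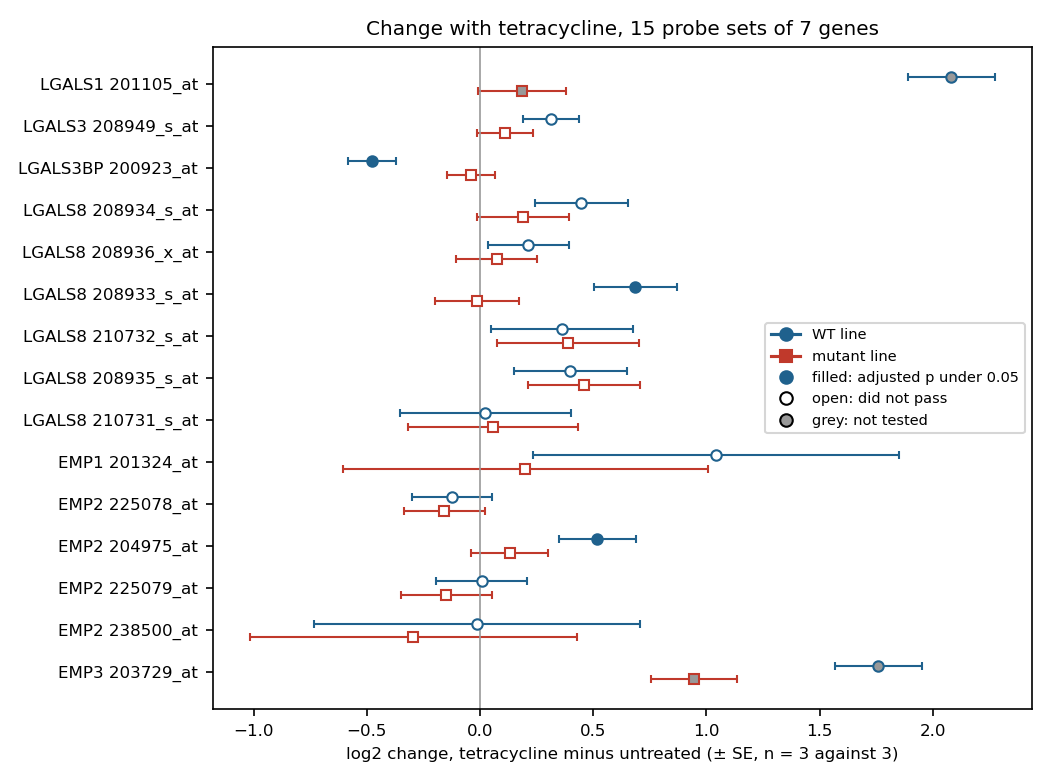
log2 change with tetracycline (horizontal axis, ± SE, n = 3 against 3) of the 15 tested probe sets in WT cells (circles) and mutant cells (squares). Grey symbols are LGALS1 and EMP3, which were not tested, and filled ones passed an adjusted p of 0.05: LGALS3BP at -0.476, LGALS8 208933_s_at at 0.687 and EMP2 204975_at at 0.518, all in WT cells.

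The bases before the RefSeq start sites of 3 of these genes are shown (GRCh38.p14, 250 bases each, 5′ to 3′ on the gene's strand). They were picked because EMP3 was higher with tetracycline in both lines and LGALS3BP fell in WT cells. For EMP2, 2 of 4 probe sets were called lower in untreated WT cells. The promoter sequences used here held no LGALS1 entry. Capitals mark matches on either strand to any of 6 motifs. The motif TATAAA is bound by the general transcription machinery, and GGGCGG by the SP family of factors. The sequence TGANTCA, with any base in the middle, is a loose form of the site of the AP-1 factors, of which ATF3 is a relative. The composite TGATGNAA is a site of ATF4 paired with a partner of the CEBP family, and CATTCC is the site of the TEAD factors. The last motif, the core of the interferon response element, was searched as 2 copies of GAAA that are 2 bases apart.
EMP3, chr19:48325302-48325551, plus strand: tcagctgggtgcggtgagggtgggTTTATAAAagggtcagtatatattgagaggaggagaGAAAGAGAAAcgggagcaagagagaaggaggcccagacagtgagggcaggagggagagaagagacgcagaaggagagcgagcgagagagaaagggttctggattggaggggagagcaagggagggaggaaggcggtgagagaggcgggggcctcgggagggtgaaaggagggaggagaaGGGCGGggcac
LGALS3BP, chr17:78979924-78980173, minus strand: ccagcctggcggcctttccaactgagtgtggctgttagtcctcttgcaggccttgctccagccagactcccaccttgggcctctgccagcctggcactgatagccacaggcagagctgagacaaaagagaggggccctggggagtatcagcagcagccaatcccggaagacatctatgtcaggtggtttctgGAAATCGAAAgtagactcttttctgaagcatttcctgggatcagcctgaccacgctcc
EMP2, chr16:10580599-10580848, minus strand: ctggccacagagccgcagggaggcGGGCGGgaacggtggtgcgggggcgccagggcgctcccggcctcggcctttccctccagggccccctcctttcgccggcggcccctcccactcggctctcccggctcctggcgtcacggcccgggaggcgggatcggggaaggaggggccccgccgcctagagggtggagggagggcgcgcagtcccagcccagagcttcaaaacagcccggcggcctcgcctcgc
The EMP3 stretch held overlapping TATAAA matches on both strands, beginning 224 and 226 bases before the start. It also held 1 interferon core match, beginning 190 bases before the start, and 1 SP site match next to the start. LGALS3BP held 1 interferon core match, beginning 58 bases before the start, and EMP2 held 1 SP site match. Over 35116 RefSeq start sites TATAAA occurred in 10.7%, the SP site in 42.6%, AP-1 in 6.57%, the ATF4 motif in 3.14%, TEAD in 11.9% and the interferon core in 3.02% of such stretches. The EMP3, LGALS3BP and EMP2 stretches held 59.2%, 56.8% and 77.2% G and C, against a median of 58%. A second EMP3 start site, not printed, held none of the motifs. EMP1 held 2 matches to the AP-1 motif (TGAGTCA and TGATTCA) and 1 SP site match. LGALS8 held 2 TATAAA matches before start site 1, none before start site 2 and 1 SP site match before start site 3. LGALS3 held 3 SP site matches. A match of letters is a description of the sequence and shows no binding.

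The genes whose signal followed LGALS1 most closely over the 12 arrays were FBXO45, LOC728485, SERPINE2, ATF3 and PPARG. Pearson r was 0.962 for FBXO45, 0.956 for LOC728485, 0.955 for the secreted protease inhibitor SERPINE2, 0.952 for the stress transcription factor ATF3 and 0.949 for the nuclear receptor PPARG, and Spearman rho ran from 0.888 to 0.972. Those closest to EMP3 were HPSE, an enzyme that cuts heparan sulfate, with r = 0.98, then DDAH2 (0.957), NIT1 (0.951), FBLL1 (0.95) and ILK (0.95), a scaffold protein of integrin adhesions. Their rho ran from 0.867 to 0.972. HPSE had group means of 8.37 and 9.64 in untreated and treated WT cells and 9.09 and 9.69 in mutant cells, with both treated groups at similar levels, as for EMP3. ATF3 had means of 11.06 and 13.09 in WT cells and 11.39 and 12 in mutant cells. LGALS1 and EMP3 themselves gave r = 0.806, and LGALS1 and LGALS3BP r = -0.832. These values rank 13065 genes over 12 arrays that share the same 4 groups, and no test was made of them.

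Lists of genes that work with galectins or EMP proteins, with 1 probe set per gene, showed mixed changes in WT cells. Over all genes 9.41% rose and 8.57% fell there, with a median change of 0.0316. Of 25 glycoproteins that galectins are known to bind, 5 rose and 2 fell, with a median of 0.18. The amino acid transporter subunit SLC3A2 rose by 0.915 ± 0.146 (limma adjusted p = 0.00112), the fibronectin receptor subunit ITGA5 by 1.05 ± 0.173 (adjusted p = 0.00134), the lysosomal tetraspanin CD63 by 0.469 ± 0.0944 (adjusted p = 0.00436) and the surface receptor CD47 by 0.681 ± 0.163 (adjusted p = 0.0115). These 4 gave 0.36, 0.189, 0.13 and 0.0928 in mutant cells. With the 6 WT arrays alone 3 rose and 0 fell, and CD63 did not pass (adjusted p = 0.0523). The 2 that fell, named after their values were seen, were the adhesion receptor CD44 and the laminin subunit LAMC1. The number that fell was 4 without WT tetracycline replicate 1, 1 without WT untreated replicate 1 or 2 or without a filter, and 0 without WT tetracycline replicate 2 or 3, WT untreated replicate 3 or the variance trend. Without the replicate 3 arrays 2 rose and 0 fell, and CD63 (adjusted p = 0.0685) and CD47 (0.066) did not pass.

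Of 21 genes of the response to damaged lysosomes, in which galectins 3 and 8 act, 7 rose and 1 fell in WT cells, with a median of 0.248. The autophagy membrane protein MAP1LC3B rose by 0.612 ± 0.115 (limma adjusted p = 0.00292) and the autophagy receptors OPTN and TAX1BP1 by 0.75 ± 0.161 (adjusted p = 0.00638) and 0.529 ± 0.118 (adjusted p = 0.00803). The membrane repair subunit CHMP4B fell by 0.784 (adjusted p = 0.0201). These 4 gave -0.00117, 0.389, 0.181 and -0.162 in mutant cells. None of the list passed with the 6 WT arrays alone or without the replicate 3 arrays (0 of 21 in each). The count of risen genes was between 3 and 5 without WT tetracycline replicate 2 or 3 or any one untreated WT array. Without the variance trend 3 rose and 0 fell. CHMP4B did not pass there (adjusted p = 0.0548) or without WT tetracycline replicate 2 (0.0906) or 3 (0.0949) or WT untreated replicate 3 (0.0765).

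Of 26 enzymes that build the sugar chains galectins bind, 2 rose and 3 fell in WT cells, with a median of -0.0541. GCNT1, which branches O-linked chains, fell by 1.16 (limma adjusted p = 0.00187) and MAN1A2, which trims N-linked chains, by 0.576 (adjusted p = 0.0138). MGAT5, which adds the branch that galectins favour, rose by 0.47 ± 0.134 (adjusted p = 0.0277) and C1GALT1, which extends O-linked chains with galactose, by 0.769 ± 0.223 (adjusted p = 0.0295). GCNT1 passed with the 6 WT arrays alone (adjusted p = 0.0352), and the other 3 did not (adjusted p from 0.109 to 0.155). MGAT5, C1GALT1 and MAN1A2 also lost their calls without WT tetracycline replicate 3 (adjusted p from 0.0526 to 0.105). MGAT5 did not pass without WT tetracycline replicate 2 or WT untreated replicate 1 or 3 either (0.0683 to 0.124), nor C1GALT1 without WT tetracycline replicate 2, WT untreated replicate 2 or 3 or with array weights (0.0525 to 0.0932). Without the replicate 3 arrays 0 rose and 0 fell. Without WT tetracycline replicate 2 or WT untreated replicate 3, 0 members rose and 2 fell, and without WT tetracycline replicate 3, 0 rose and 1 fell. The number that rose was 4 without WT tetracycline replicate 1 and 1 without WT untreated replicate 1 or 2.

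Of 23 partners of the EMP proteins and PMP22, 2 rose and 0 fell in WT cells. They were the lipid raft protein FLOT2 with 0.531 ± 0.144 (limma adjusted p = 0.0211) and the caveolin CAV2 with 0.561 ± 0.177 (adjusted p = 0.0422), and neither passed with the 6 WT arrays alone (adjusted p = 0.126 and 0.157). Without WT tetracycline replicate 3 neither passed (adjusted p = 0.0546 and 0.157). CAV2 also failed to pass without WT tetracycline replicate 2 (adjusted p = 0.156) or WT untreated replicate 1 (0.154) or 3 (0.0799), without a filter (0.061) or without the variance trend (0.0891). FLOT2 failed without WT untreated replicate 1 (0.0732) and with array weights (0.0635), and neither passed without the replicate 3 arrays (0.108 and 0.321). The number of partners that fell was 2 without WT tetracycline replicate 1, and 1 without WT untreated replicate 1 or 2 or with array weights. Of 8 other tetraspan proteins related to PMP22 and claudins 1 rose, the p53-regulated adhesion protein PERP, by 0.509 ± 0.0961 (adjusted p = 0.00299, and 0.0449 with the 6 WT arrays alone). That count was 2 without WT tetracycline replicate 1 or WT untreated replicate 1 or 2 or with array weights, and 0 without the replicate 3 arrays, where PERP did not pass (adjusted p = 0.0766). Among these proteins 1 fell without WT tetracycline replicate 1 or with array weights. Of 8 other galectin genes on the array only LGALSL was bright enough to test, with 0.299 ± 0.225 (adjusted p = 0.391). Without WT tetracycline replicate 1 it passed (0.59, adjusted p = 0.026), and in the other alternatives its adjusted p ran from 0.0677 to 0.974. In mutant cells 0 members of these 6 lists passed by limma, where 0% of all genes were called. There 1 damaged-lysosome gene and 1 galectin ligand had an unadjusted p under 0.05. For the difference between the inductions 0 members of the 6 lists passed, where 0.139% of all tested probe sets were called. The calls in WT cells alone therefore do not show that a list changed differently in the 2 lines.

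**Figure D4:**
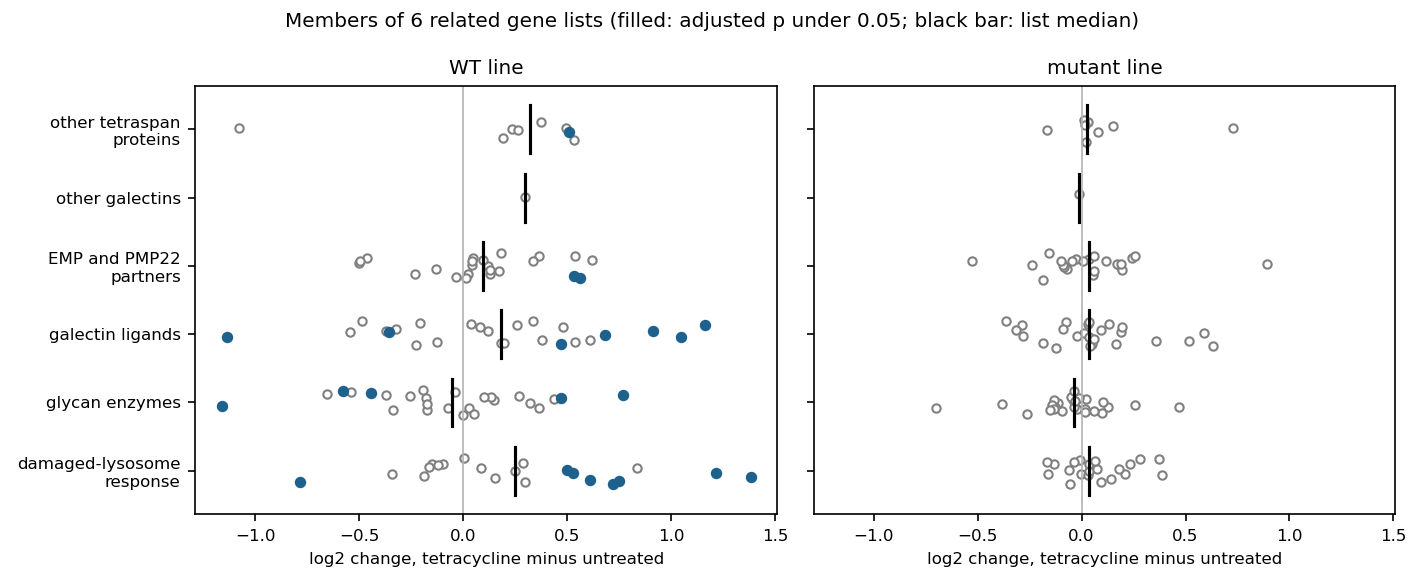
log2 change with tetracycline (horizontal axis) of each tested member of 6 gene lists in WT cells and mutant cells, with members past an adjusted p of 0.05 filled and the list median as a black bar. Of 25 galectin ligands 5 rose and 2 fell in WT cells, and of 21 damaged-lysosome genes 7 rose and 1 fell. Over all genes 9.41% rose and 8.57% fell. With the WT arrays alone 0 damaged-lysosome genes passed. There is no filled point for mutant cells, where 0% of all genes were called.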

How the data were processed

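Total RNA of 12 samples in 4 groups was measured on Affymetrix arrays. The authors deposited MAS5 signals, named so in the submitters' processing notes, an intensity on a linear scale. Which MAS5 version and settings were used is not given in the sources used here. The trimmed mean (2% cut at each end), averaged over all arrays, was 500.1. The authors appear to have scaled the arrays to a common mean, but the values of single arrays are not given here. Values under 1 (0.337% of them) were set to 1 and log2 was taken. Probe sets with a highest group mean above the median of all values, 6.39, were tested (29553 of 54675; the 62 AFFX controls were left out).

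One limma model (limma 3.58.1, R 4.3.3) with a mean per group and eBayes with a variance trend was fitted to all 12 arrays, and p-values are 2-sided and adjusted over all tested probe sets within a contrast. It was run on simulated data with known changes. The simulation gave all groups the same spread, unlike the WT and mutant arrays, so it could not check the use of 1 shared spread. Symbols came from the platform annotation, updated through RefSeq gene IDs for lists, where 1 probe set per gene (the highest mean signal) was used. Of 126 list genes 116 were on the array under 1 symbol. Members, lists and alternatives were chosen with earlier results of these data known. Up to 4 called list members with the smallest p, and the 5 genes most correlated with LGALS1 and with EMP3, are named. Figures were drawn with matplotlib 3.10.9. No column of the table was left out.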

Additional observations from a re-analysis of the deposited data

Results flagged for a closer look

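On every untreated array LGALS1 was lower in WT than in mutant cells (log2 difference -0.867) and higher on every array with tetracycline (1.03). These differences point in opposite directions with no overlap of arrays in either comparison. The difference between them was not tested, because LGALS1 was chosen for its values in these groups.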

How the results depend on the processing

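LGALS1 and EMP3 kept their direction under all alternatives run for the inductions, for their difference and for the untreated lines. LGALS1 also kept it between the treated lines, where EMP3, with 0.0283, changed sign under 2 of 15. Where groups lay apart, leaving out arrays cannot turn the direction. Both genes were chosen on these values, so this is a description. The number of called probe sets among the 13 of the relatives was 3, 0, 0, 2 and 4 for tetracycline in WT cells, tetracycline in mutant cells, the difference of these, untreated lines and treated lines. With a replicate block it was the same in each contrast (3, 0, 0, 2 and 4). Deviations of same-numbered arrays correlated at 0.0258 to 0.253 over the 6 pairs within a line, with 4 above 0.1, and at -0.00534 to 0.0806 over the 12 pairs across lines. In neither line were all 3 pairs above 0.1, and the numbers were not taken to pair the arrays. Pairing within a line was not tested, and the replicate block, shared by both lines, does not model it. With only the groups compared the number of called probe sets was 0 for the WT induction and 2 for the treated lines. It was 2 for the treated lines after quantile normalization and 2 without the variance trend. Leaving out single arrays gave 1 to 4 for the WT induction, 0 to 1 for the difference, 0 to 2 for the untreated lines and 0 to 4 for the treated lines. Without a filter it was 3 for the WT induction, of which 2 were the same probe sets. Alternatives added after the data were seen gave 0 for all contrasts without the replicate 3 arrays of all groups, and 1 for the difference with array weights, which was LGALS3BP (-0.561, adjusted p = 0.024). Some changes that did not pass turned sign. EMP1 201324_at, at 1.04 in WT cells and 0.201 in mutant cells, ranged from -0.0672 to 1.61 in WT cells and from -0.251 to 0.479 in mutant cells over single arrays left out, and gave -0.592 and -0.184 without the replicate 3 arrays. EMP2 225078_at ranged from -0.273 to 0.0445 over single arrays left out in WT cells. EMP2 225079_at ranged from -0.200 to 0.12 and gave -0.101 with array weights in WT cells, and LGALS8 208933_s_at ranged from -0.11 to 0.129 in mutant cells. The cause was not tested. Without WT tetracycline replicate 3 and under the stricter filter EMP1 gave no value, since its probe set was then too dim. Quantile normalization moved the median of all probe sets between the untreated lines from -0.0916 to 0.0142, and the share of calls that were higher in WT cells from 32.5% to 43.4%. For the difference of inductions that share went from 46.3% of 41 calls to 26.7% of 15. The number of arrays and, for EMP1, signals close to background limit these results.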
